A study of Mus musculus with 8 samples.

Results

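The genes described here encode ATP-dependent chromatin remodelers and histone lysine demethylases. They were chosen by symbol, as every gene whose name begins with Smarc, Chd, Kdm or Ino80 (for Chd and Kdm, followed by a digit), which gave 44 of the 16456 transcripts in the deposited poly(A) RNA table. Of these, 37 were among the 7820 transcripts of the LIN28A CLIP table, 37 among the 7936 of the ribosome footprint table, and 36 in both. All libraries came from A3-1, a mouse embryonic stem cell line grown with serum and the cytokine LIF. CLIP-seq sequences the RNA that comes down with a crosslinked protein, here LIN28A, and was done with 3 antibodies in cells without siRNA. Those were the monoclonals 35L33G and 2J3 and a polyclonal serum, 1 library each. Poly(A) RNA was sequenced from untreated cells and from cells that 48 h earlier had received a luciferase siRNA (siLuc, the control) or a Lin28a siRNA (siLin28a), with 1 library of each kind. Ribosome-protected fragments (footprints) were sequenced after siLuc and siLin28a, 1 library each.

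Remodelers use ATP hydrolysis by a SNF2-type motor to slide, eject or exchange nucleosomes. SWI/SNF (BAF), ISWI, CHD and INO80 are the main families, and embryonic stem cells use a form of BAF built around Smarca4 and Smarcc1. Histone demethylases remove methyl groups from lysines, by a flavin-dependent oxidase reaction in the Kdm1 family and by a jumonji iron enzyme in the others. LIN28A, made in pluripotent cells, binds the precursors of let-7 microRNAs and many mRNAs.

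The strands of the siRNA against Lin28a are shown because every siRNA comparison rests on them. They are given 5′ to 3′ from the sample labels without the deoxythymidine overhangs. Capitals mark bases 2 to 8, the seed of either strand, and each strand is the reverse complement of the other over 19 bases.
siLin28a strand 1: aUGUUCUUcccuuuuggcc
siLin28a strand 2: gGCCAAAAgggaagaacau

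Library totals lay between 5980673 and 9605641 counts. Lin28a poly(A) RNA stood at 465 CPM (counts scaled to the library total) untreated, 354 with siLuc and 118 with siLin28a, which is 33.4% of siLuc, and Lin28a footprints at 25.7% of siLuc. All 10 embryonic stem cell markers were detected, with summed levels of 5406 CPM untreated, 5491 with siLuc and 6624 with siLin28a. The 9 measured markers of differentiated lineages summed to 6.91, 12.8 and 23.8 CPM, with Cdx2 at 0 untreated and Gata6 at 0 with siLuc. The 6 measured fibroblast markers summed to 185, 294 and 309 CPM, of which Vim, also expressed by stem cells, gave 153, 262 and 289. The part of these marker differences in the siRNA results was not tested. In bulk samples, fewer cells of a type and less RNA per cell cannot be told apart.

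Most of these genes were expressed in A3-1 cells, and closely related genes differed widely in level. Levels are the authors' deposited RPKM, reads scaled by exon length and library size. The median untreated level was 20.4 RPKM, against 16.1 over the 10216 transcripts with at least 50 untreated counts, and 34 of the 44 stood at 10 RPKM or more. Kdm5b, which demethylates H3K4, was highest with 236 RPKM untreated, 216 with siLuc and 301 with siLin28a. Chd4, the motor of the NuRD deacetylase complex, followed at 176, 184 and 164 RPKM, and Kdm1a, the flavin-dependent H3K4 demethylase also called LSD1, at 135, 129 and 129. No library of Kdm1a reached the lowest library of Chd4, and the siLin28a library was the highest for Kdm5b alone among these 3 genes.

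Within SWI/SNF, the core subunit gene Smarcb1 stood at 93.5, 72.8 and 93.5 RPKM in untreated, siLuc and siLin28a cells. The motor gene Smarca4 was at 74.3, 62.5 and 74.98 RPKM. Its paralog Smarca2, the alternative motor, was at 0.26, 0.55 and 1.00 RPKM, from 14, 24 and 56 counts. The scaffold gene Smarcc1 was at 70.0, 83.9 and 71.7 RPKM, and its paralog Smarcc2 at 6.23, 8.11 and 8.71. Every library of Smarca4 and Smarcc1 lay above every library of the respective paralog. Among the accessory Smarcd genes, Smarcd1 was at 64.3, 49.4 and 48.6 RPKM, Smarcd2 at 39.0, 36.8 and 38.3, and Smarcd3 at 8.82, 6.13 and 9.60.

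Levels within the other families were also spread. Chd3 and Chd4 encode alternative NuRD motors, and Chd3 stood at 11.01, 11.6 and 8.67 RPKM against the Chd4 levels above. Chd5, the third gene of that subfamily, was at 2.42, 1.64 and 1.31 RPKM. Smarca5, the main ISWI motor, was at 29.5, 37.8 and 25.3 RPKM, and its paralog Smarca1 at 2.37, 3.89 and 3.77. Of the Kdm5 genes, X-linked Kdm5c stood at 50.5, 43.9 and 52.9 RPKM and Kdm5a at 14.4, 15.8 and 13.8. Kdm1b, the second flavin-dependent enzyme, was at 10.3, 9.59 and 8.71 RPKM. The H3K27 demethylase genes Kdm6a and Kdm6b were at 19.9, 18.6 and 18.8 and at 14.7, 12.0 and 23.9 RPKM. Untreated levels of Smarca2, the Y-linked Kdm5d and Kdm4d were below 1 RPKM. Kdm5d had 8, 1 and 11 counts and Kdm4d 0, 8 and 0.

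**Figure D1:**
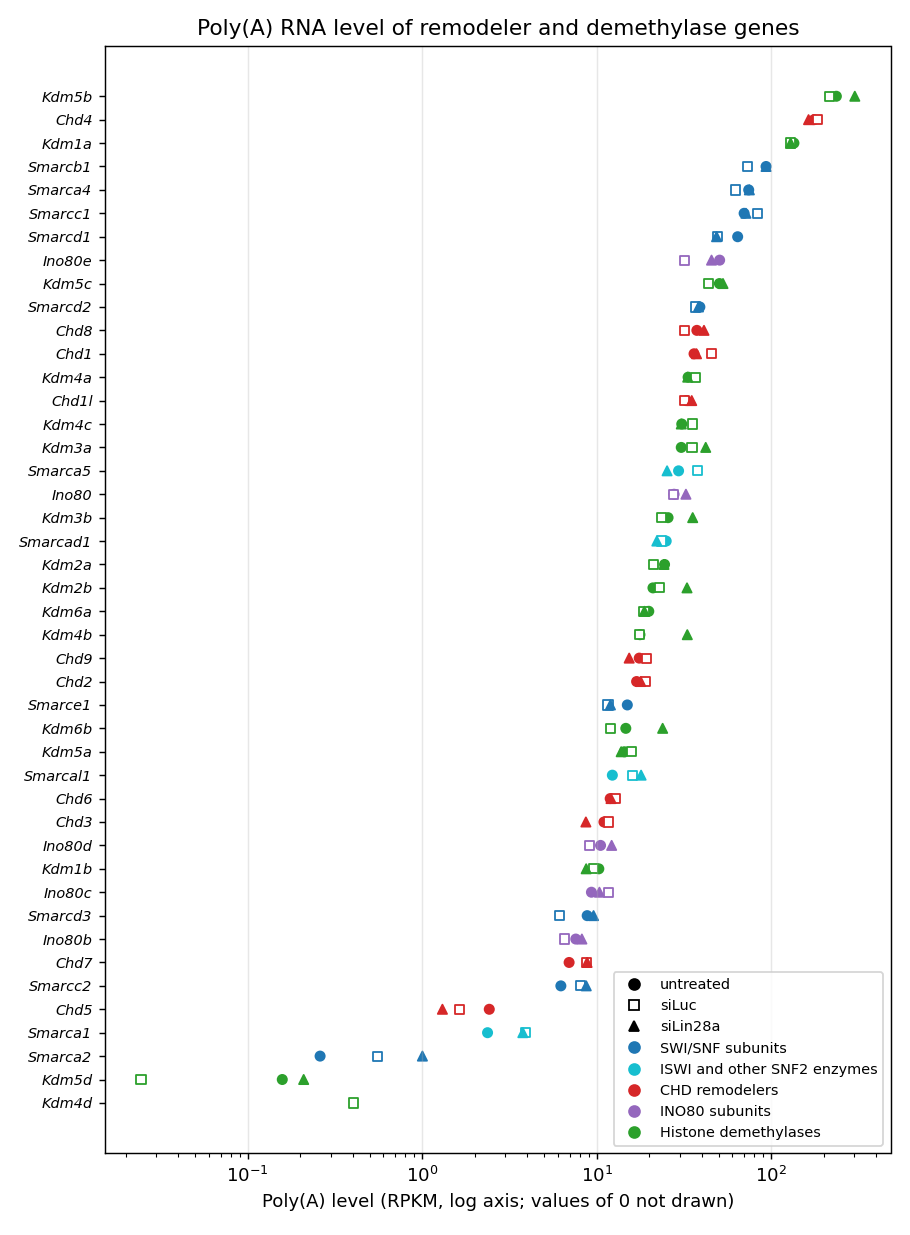
Poly(A) RNA level (RPKM, log axis) of the 44 genes in untreated (filled circles), siLuc (open squares) and siLin28a (triangles) cells, 1 library each, colored by family. Kdm5b, Chd4 and Kdm1a lie above 100 RPKM in all 3 libraries, and Smarca2, Kdm5d and Kdm4d lie near 1 or lower.

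The CLIP comparison asks which mRNAs were over- or under-represented among LIN28A-bound RNA relative to untreated poly(A) RNA. CHD remodeler mRNAs were mostly enriched and SWI/SNF subunit mRNAs mostly depleted, while demethylase mRNAs were spread over both sides. With edgeR's quasi-likelihood test (Benjamini-Hochberg adjusted p of 0.05 or less over 7820 transcripts), 13 of the 37 measured genes were enriched, 13 depleted and 11 not called. Over all transcripts 34.6% were enriched and 33.3% depleted, so the totals for these genes lie near the background. Enrichment is the log2 ratio of CLIP to untreated poly(A) counts after TMM scaling, with a pseudocount of 0.5 counts, given as mean ± SD over the 3 antibodies. The median was 0.02, against −0.03 over all transcripts. The sign was the same with all 3 antibodies for 36 of the 37 genes, Kdm3a being the exception, and the median SD over antibodies was 0.09. Chd5, Ino80b, Kdm4d, Kdm5d, Smarca1, Smarca2 and Smarcd3 were not in the CLIP table. Nothing states that the CLIP libraries came from separate cultures, so p-values cover a spread between libraries that may be technical, and the single untreated library is assumed to vary like them. The series holds no control CLIP library, so enrichment includes any other difference between CLIP and poly(A) RNA-seq. Scaling by library totals in place of TMM moved the median fitted value of all transcripts from −0.01 to −0.38, and the calls that this ended or turned are given below. Of all 7820 transcripts, library totals called 1984 enriched and 3605 depleted, against 2702 and 2604 with TMM. A further setting, coding counts, limited the CLIP counts to coding sequence but kept the poly(A) counts of the whole transcript. It therefore also moves each value with the coding share of its CLIP counts.

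Of 9 measured CHD genes, 7 were enriched, 0 depleted and 2 not called, with a median of 0.90; with library totals 6 were enriched and 1, Chd1l, depleted. Chd6 had 2282, 2313 and 2278 CLIP counts with 35L33G, 2J3 and the polyclonal serum, or 296, 295 and 284 CPM, against 126 CPM in untreated poly(A) RNA. Its log2 enrichment was 1.52 ± 0.03 (SD, n = 3; adjusted p = 3.06e-10, edgeR; mm9 chromosome 2, 160772714 to 160934792), the highest of the 37. Chd1, a remodeler that binds H3K4-methylated chromatin and is known for keeping stem cell chromatin open, had 588, 577 and 616 CPM in CLIP against 286 untreated, a log2 enrichment of 1.36 ± 0.06 (SD, n = 3; adjusted p = 4.41e-11, edgeR).

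Chd4 was the most abundant of the 37 in CLIP. It had 16224, 16668 and 16573 CLIP counts, or 2107, 2124 and 2064 CPM, against 1131 CPM untreated. Its log2 enrichment was 1.20 ± 0.02 (SD, n = 3; adjusted p = 7.04e-13, edgeR; mm9 chromosome 6, 125046181 to 125080519). For Chd6, Chd1 and Chd4, all 3 CLIP libraries lay above the untreated level. The paralog Chd3 had 97.7, 100.01 and 94.7 CPM in CLIP against 79.0 untreated. It was at 0.61 ± 0.04 (SD, n = 3; adjusted p = 0.00306, edgeR), not called with library totals, and its 3 antibody values did not overlap those of Chd4. Chd9, the fifth highest, had 316, 337 and 326 CPM in CLIP against 202 untreated, a log2 enrichment of 1.00 ± 0.05 (SD, n = 3; adjusted p = 5.12e-08, edgeR). Chd7, the gene mutated in CHARGE syndrome in humans, was at 0.90 ± 0.17 (SD, n = 3). Chd8, a remodeler that binds beta-catenin, was at 0.64 ± 0.07 (SD, n = 3). Not called were Chd2 at 0.28 ± 0.15, which was called without 35L33G and with coding counts and turned to −0.08 with library totals, and Chd1l, a remodeler activated by poly(ADP-ribose), at −0.39 ± 0.16, which turned to 0.37, not called, with coding counts.

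Of 7 measured SWI/SNF genes, 4 were depleted, 1 enriched and 2 not called, with a median of −0.92; with library totals 6 were depleted and 0 enriched. Smarcb1 had 30.4, 30.6 and 31.9 CPM in CLIP against 155 untreated, a log2 enrichment of −2.01 ± 0.05 (SD, n = 3; adjusted p = 8.85e-09, edgeR; mm9 chromosome 10, 75359514 to 75384359). Smarcd2 had 29.5, 33.4 and 25.2 CPM against 108, and Smarcd1 84.7, 63.6 and 65.4 CPM against 203. Their log2 enrichments were −1.57 ± 0.20 and −1.21 ± 0.22 (SD, n = 3; adjusted p = 2.45e-06 and 1.91e-06, edgeR). Every CLIP library of these 3 genes lay below the untreated level.

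Smarca4 had 201, 202 and 204 CPM in CLIP against 474 untreated, a log2 enrichment of −0.92 ± 0.02 (SD, n = 3; adjusted p = 5.97e-08, edgeR). Smarcc1, whose protein joins Smarca4 in the same complex, had 404, 397 and 387 CPM against 397, a log2 enrichment of 0.31 ± 0.02 (SD, n = 3; adjusted p = 0.0052, edgeR) that turned to −0.059, not called, with library totals. The antibody values of Smarca4 and Smarcc1 did not overlap. Smarcc2, with 17.8, 15.5 and 20.7 CPM against 30.8, was not called at −0.47 ± 0.21, and turned to 0.10 with coding counts. Smarce1 was not called at −0.79 ± 0.54, the largest SD of the 37. Both were called depleted with library totals, and Smarce1 also without the polyclonal serum and, at −2.01, with coding counts. Smarce1 is also the gene whose poly(A) counts differed most between tables, with 889 siLuc counts in the footprint table and 253 in the poly(A) table, so its values are uncertain.

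The ISWI motor Smarca5 had 212, 227 and 205 CPM in CLIP against 137 untreated, a log2 enrichment of 0.96 ± 0.07 (SD, n = 3; adjusted p = 1.04e-06, edgeR). Smarcad1, a remodeler of heterochromatin, was enriched at 0.85 ± 0.09. Smarcal1, an annealing helicase of stalled replication forks, was depleted at −0.87 ± 0.21 (SD, n = 3 each), a call not kept with coding counts. Among INO80 subunit genes, Ino80d had 253, 244 and 261 CPM against 142 untreated, a log2 enrichment of 1.14 ± 0.05 (SD, n = 3; adjusted p = 3.94e-08, edgeR). Ino80e was depleted at −0.99 ± 0.22. The motor gene Ino80 at 0.10 ± 0.09 and Ino80c at 0.57 ± 0.19 were not called. With coding counts Ino80 was called enriched at 0.75, and Ino80c turned to −1.48, not called.

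Of 14 measured demethylase genes, 7 were depleted, 2 enriched and 5 not called, with a median of −0.36. This direction depended on the counts and the scaling used. With coding counts 5 were enriched and 3 depleted, and with library totals 1 was enriched and 10 depleted. Coding CLIP counts were set against poly(A) counts of the whole transcript. Coding sequence made up a median of 74.2% of the length of these demethylase transcripts, against 56.1% over all coding transcripts. Over all transcripts, coding counts called 2508 of 7805 enriched and 2412 depleted, and library totals 1984 of 7820 and 3605. Kdm4b, an H3K9 and H3K36 demethylase, had 86, 69 and 74 CLIP counts, or 11.2, 8.79 and 9.22 CPM, against 81.6 CPM untreated. Its log2 enrichment of −2.76 ± 0.17 was the lowest of the 37 (SD, n = 3; adjusted p = 5.84e-08, edgeR; mm9 chromosome 17, 56465473 to 56542296). Its paralogs Kdm4a and Kdm4c were at −0.79 ± 0.04, depleted, and 0.08 ± 0.04, not called (SD, n = 3 each), and the 3 genes did not overlap over antibodies. Kdm2b, which binds unmethylated CpG islands and recruits a Polycomb complex, had 24.6, 25.4 and 18.8 CPM against 108, a log2 enrichment of −1.94 ± 0.23 (SD, n = 3; adjusted p = 2.67e-07, edgeR). Its paralog Kdm2a was not called at −0.16 ± 0.12, though depleted with library totals.

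The Kdm5 genes also differed among themselves. Kdm5a had 188, 208 and 204 CPM in CLIP against 158 untreated and was enriched at 0.65 ± 0.09 (SD, n = 3; adjusted p = 0.000125, edgeR). Kdm5b had 880, 884 and 931 CPM against 1489 and was depleted at −0.42 ± 0.05 (SD, n = 3; adjusted p = 2.08e-05, edgeR), but it turned to 0.21, called enriched, with coding counts as the CLIP measure. Kdm5c had 164, 126 and 155 CPM against 316 and was depleted at −0.79 ± 0.20 (SD, n = 3; adjusted p = 2.54e-05, edgeR), a call not kept with coding counts. The antibody values of Kdm5a did not overlap those of the other two. Kdm1a had 378, 417 and 360 CPM against 407, a log2 enrichment of 0.23 ± 0.11 (SD, n = 3; adjusted p = 0.0439, edgeR). That call was lost without 35L33G, without 2J3 and with DESeq2, and the value turned to −0.14 with library totals, while with coding counts it was 0.96 and called. Kdm1b, with 27.4, 29.8 and 27.9 CPM against 44.0, was not called at −0.32 ± 0.07, but was depleted with library totals and at 0.045 with coding counts. The H3K27 demethylase gene Kdm6b had 44.2, 56.3 and 55.6 CPM in CLIP against 97.6, and Kdm6a 108, 106 and 92.8 against 104.7. Kdm6b was depleted at −0.60 ± 0.21 and Kdm6a not called at 0.27 ± 0.11; with coding counts Kdm6b was not called and Kdm6a, like Kdm4c, was enriched. The H3K9 demethylase genes Kdm3b and Kdm3a were at −0.41 ± 0.07, depleted, and 0.02 ± 0.14, not called (SD, n = 3 each). The Kdm3b value turned to 0.16 with coding counts and the Kdm3a value to −0.34 with library totals.

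**Figure D2:**
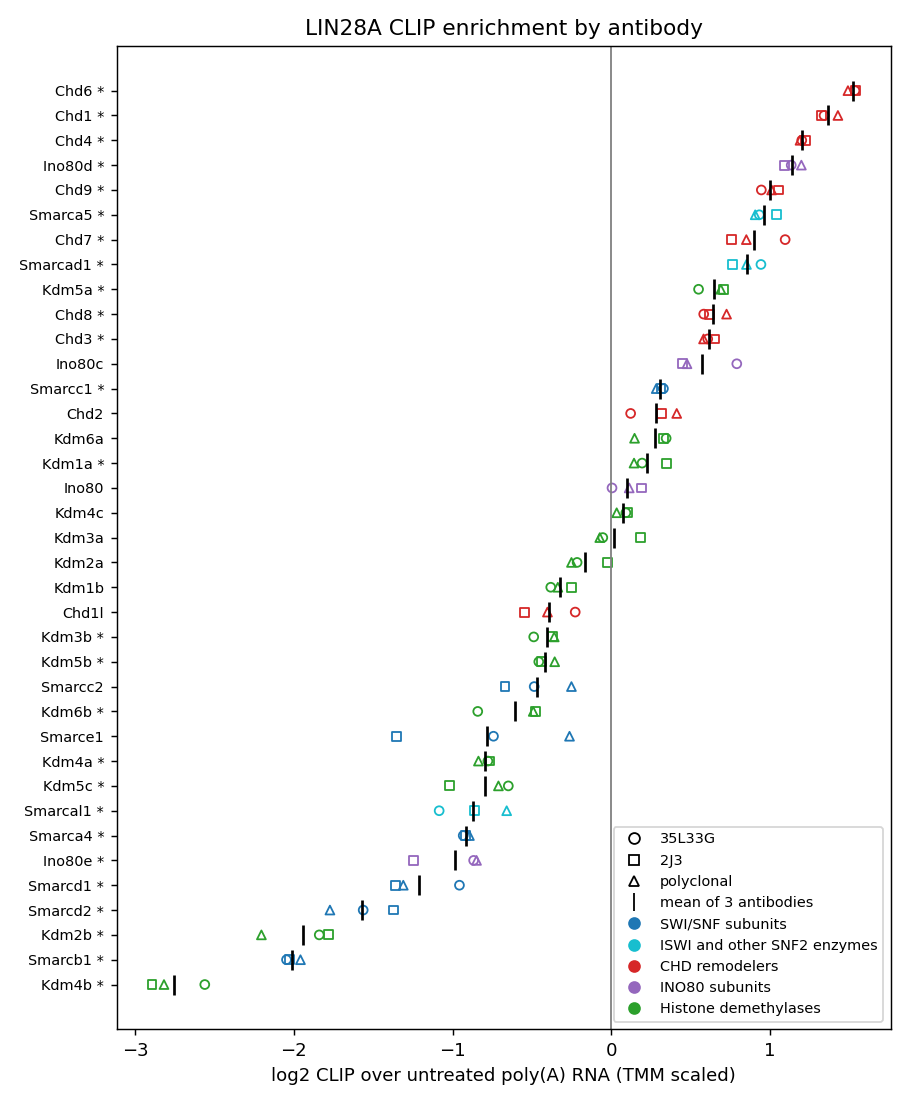
Log2 LIN28A CLIP over untreated poly(A) RNA for the 37 genes in the CLIP table, with 1 symbol per antibody, the mean as a bar and an asterisk for genes called by edgeR at an adjusted p of 0.05 or less. CHD genes take most of the upper places, and Kdm4b, Smarcb1 and Kdm2b are lowest.

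In all, 5 of the 37 were enriched and 5 depleted by at least 2-fold, against 21.4% and 21.2% of all transcripts. Partner genes in the same complexes were described by lists of named subunits. Their calls use the adjusted p alone, by which 34.6% of all transcripts were enriched and 33.3% depleted. Of 12 measured BAF partners 3 were enriched and 4 depleted (median −0.23), with the PBAF subunit genes Pbrm1 at 1.86 ± 0.07 and Arid2 at 1.34 ± 0.06 at the top and Dpf2 at −1.85 ± 0.14 and Brd9 at −1.56 ± 0.74 at the bottom (SD, n = 3 each). Of 10 NuRD partners 2 were enriched and 1 depleted (median 0.04), with Hdac2 at 0.50 ± 0.03 and Mbd3 at −1.59 ± 0.22. Of 7 ISWI partners 3 were enriched and 2 depleted (median 0.36), with Rsf1 at 1.51 ± 0.14. Of 14 INO80, SRCAP and TIP60 partners 2 were enriched and 7 depleted (median −0.92), with the helicase gene Ruvbl1 at 0.80 ± 0.07 and Dmap1 at −2.23 ± 0.43. Of 10 other SNF2-type motors 4 were enriched and 2 depleted (median 0.05), led by Atrx at 2.28 ± 0.05. Of 11 other jumonji proteins and demethylase partners 4 were enriched and 3 depleted (median 0.16), led by Jhdm1d at 2.33 ± 0.21 and Jmjd1c at 1.83 ± 0.06. Of 23 histone methyltransferases 13 were enriched and 8 depleted (median 0.50), from Smyd5 at −2.56 ± 0.13 to Setd2 at 1.73 ± 0.07 (SD, n = 3 each).

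These mRNAs are long, with a median coding length of 3642 bases against 1503 over the 7354 coding transcripts with at least 50 CLIP counts in coding sequence plus 3′ UTR. Across the 37 genes, CLIP enrichment and coding length had a Spearman correlation of 0.49, against 0.01 over all 7733 coding transcripts tested, as a description in which the points share the same 4 libraries. In the 16 genes with over 4000 coding bases the median enrichment was 0.45, and in the 678 other transcripts of that length 0.30.

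CLIP counts in these mRNAs lay mainly in coding sequence. A median of 85.8% of the coding plus 3′ UTR counts fell in coding sequence, where coding sequence made up a median of 73.6% of the transcript length. Over all coding transcripts the medians were 69.5% and 56.1%. The share of counts was above the share of length in 31 of 37 genes, against 71.9% of all transcripts. The transcript length includes the 5′ UTR, while the share of counts leaves out 5′ UTR counts. That difference raises the share of counts relative to the share of length, here and over all transcripts. The coding share of counts lay from 67.6% to 99.5% in the 9 CHD genes. For Chd8 the coding counts equaled the counts of the whole transcript with each antibody (2873, 2986 and 3267). A further 75, 100 and 72 counts were given to its 3′ UTR, so its share is uncertain. Chd7 had coding shares of 99.2%, 99.4% and 100% with 35L33G, 2J3 and the polyclonal serum, and Chd4 98.1% ± 0.29 (SD, n = 3). Smarcal1 stood furthest above its share of length, at 90.5% ± 2.49 (SD, n = 3) against 40.7% of length. Below the share of length were Kdm4b at 55.9% ± 4.14 against 70.7%, Kdm3a at 75.7% ± 4.84 against 81.8%, Ino80c at 14.2% ± 2.94 against 24.4% and Smarce1 at 28.6% ± 9.89 against 42.4% (SD, n = 3 each), and, within 1 SD of it, Ino80e and Smarcd2. Ino80d, with 22.7% of its 13529 bases coding, had 28.2% ± 3.08 of its counts there, so most of its CLIP counts fell in the 3′ UTR. With coding CLIP counts set against poly(A) counts of the whole transcript, its value was 0.08 and not called. Its coding CLIP counts were not compared with coding poly(A) counts. Read mappability, which can differ between coding sequence and UTR, was not tested.

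**Figure D3:**
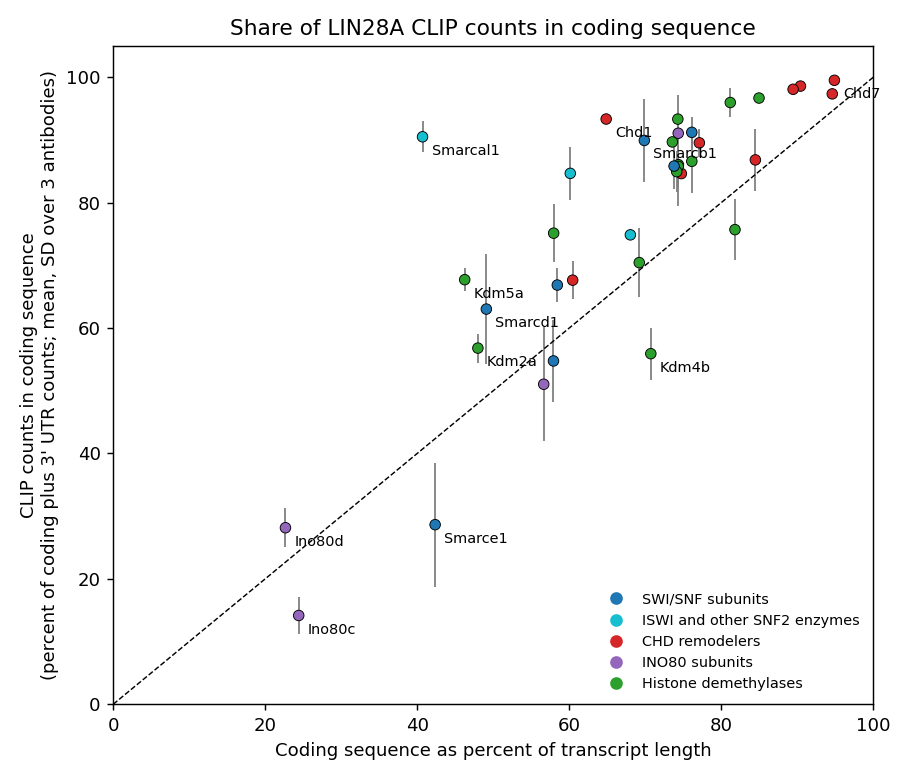
Percent of LIN28A CLIP counts in coding sequence (of coding plus 3′ UTR counts; mean with SD bars over 3 antibodies) against percent of transcript length that is coding, for 37 genes. Points above the dashed line of equality, 31 of 37, have a coding share of these counts above the coding share of length, which includes the 5′ UTR. Smarcal1 is furthest above, and Smarce1, Kdm4b and Ino80c are below.

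The siRNA comparisons ask how mRNA level, footprints and ribosome density differed after Lin28a depletion. Each condition had 1 library, so there is no replicate check and no p-value. Changes are log2 ratios of CPM with a pseudocount of 0.5 counts, relative to the median transcript, with 95% intervals that cover counting error only. Transcripts needed at least 50 counts in each library compared, which 41 of the 44 genes met for mRNA and 32 of the 37 in the footprint table met for footprints. Without centring, the median transcript lay at −0.01 for mRNA, −0.20 for footprints and −0.19 for ribosome density.

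The largest mRNA changes upward were those of the demethylase genes Kdm6b and Kdm4b, though only 3 of 14 demethylases were at least 1.5-fold higher. With siLin28a, 4 of the 41 genes were at least 1.5-fold higher than with siLuc, against 7.61% of all transcripts, and 0 were at least 1.5-fold lower, against 4.88%. Against untreated cells, 4 were higher, against 8.17%, and 1 lower, Chd5 at −0.87, against 5.08%. Kdm6b stood at 79.7 CPM with siLuc, 159 with siLin28a and 97.6 untreated, a log2 change of 1.00 (0.86 to 1.14) against siLuc and 0.72 against untreated. Kdm4b stood at 81.5, 152 and 81.6 CPM in the same order, a change of 0.91 (0.78 to 1.05) against siLuc and 0.92 against untreated. Kdm3b stood at 168, 252 and 182 CPM, a change of 0.60 (0.50 to 0.70) and 0.48. Smarcd3, from 79, 159 and 141 counts, was at 0.65 (0.26 to 1.04) against siLuc and 0.14 against untreated. For Kdm6b, Kdm4b and Kdm3b the siLin28a library was above both others, and for Smarcd3 the siLuc library was below both others.

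Kdm2b was at 0.53 (0.41 to 0.65) against siLuc and 0.66 against untreated. Kdm5b stood at 1360 CPM with siLuc, 1899 with siLin28a and 1489 untreated, a change of 0.49 (0.46 to 0.53) and 0.37. Lowest was Smarca5 with 175, 117 and 137 CPM, a change of −0.57 (−0.68 to −0.45) against siLuc and −0.20 against untreated, the siLuc library being the highest. Chd3 stood at 83.6, 62.3 and 79.0 CPM, a change of −0.42 (−0.58 to −0.25) against siLuc and −0.33 against untreated. Chd9 stood at 223, 177 and 202 CPM, a change of −0.32 (−0.42 to −0.23) and −0.18. Medians against siLuc were 0.24 for 14 demethylases, 0.33 for 5 INO80 subunits, 0.09 for 8 SWI/SNF subunits and −0.12 for 10 CHD genes. Against untreated cells they were 0.045, 0.17, 0.02 and 0.046 in the same order. The difference between demethylase and CHD medians was thus seen only against siLuc. The siLuc library itself differed from untreated by at least 1.5-fold for Smarca1, at 0.71, and for Ino80e, at −0.67, against 3.88% of all transcripts higher and 4.54% lower. These comparisons share the untreated, siLuc or siLin28a library.

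Footprints of these mRNAs were mostly lower with siLin28a relative to the median transcript. Of 32 genes, 24 lay below it, against 50% of all 6963 transcripts. By at least 1.5-fold, 11 were lower, against 15.7% of all, and 1 higher, against 19.8%, Kdm6b with 20.1 CPM of footprints under siLuc and 27.6 under siLin28a, a change of 0.66 (0.34 to 0.97). Smarcc1 was lowest, with 1628 and 480 footprint counts, or 215 and 80.3 CPM, a change of −1.22 (−1.37 to −1.08). Chd7, with 195 and 60 counts, was at −1.15 (−1.57 to −0.74), and Smarca5, with 1210 and 404, at −1.04 (−1.20 to −0.88). Next highest were Chd6 at 0.47 (−0.02 to 0.97), from 67 and 64 counts, and Ino80d at 0.20 (−0.17 to 0.57), with 17.57 and 17.56 CPM, whose intervals include the median transcript.

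Ribosome density, the footprint change minus the poly(A) change of the same table, was lower for nearly all of these genes. It was below the median transcript for 30 of 32, against 50% of all transcripts, with a median of −0.46. By at least 1.5-fold, 12 were lower, against 16.5%, and 1 higher, against 18.3%. These counts depend on centring: as plain CPM ratios 21 were lower and 0 higher. In those plain ratios the median transcript itself lay at −0.19, so more transcripts of any kind fall on the lower side. With a minimum of 200 counts, which 18 genes met, 7 were lower and 0 higher. The share of all transcripts under either setting is not given. The counting interval lay wholly below 0 for 22, against 31% of all, and wholly above 0 for 1, against 30.4%. All 13 demethylases, 6 SWI/SNF subunits, 3 ISWI and other SNF2 enzymes and 3 INO80 subunits with a value were below the median transcript, as were 5 of 7 CHD genes. Both exceptions were CHD genes.

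Chd7 was lowest at −1.20 (−1.65 to −0.76), with 25.8 CPM of footprints under siLuc and 10.03 under siLin28a, and 596 and 785 poly(A) counts in the footprint table. Smarcb1 had 111 and 56.7 CPM of footprints, and 738 and 1221 poly(A) counts, a density change of −1.14 (−1.37 to −0.92). Kdm5b had 578 and 319 CPM of footprints, and 9309 and 16541 poly(A) counts, a density change of −1.14 (−1.23 to −1.05). For Smarcb1 and Kdm5b the poly(A) level was higher and the footprint level lower with siLin28a. An mRNA change above and a density change below the median transcript were found together in 21 of the 32, against 27.9% of all transcripts. Density subtracts the poly(A) change of the same libraries, so higher mRNA lowers it for a given footprint change. With 30 of 32 already below the median in density, this joint count is not a separate result.

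Smarcc1 was at −0.93 (−1.09 to −0.77) and Smarca4 at −0.62 (−0.72 to −0.51), with Smarca4 footprints at 441 and 307 CPM. Smarcd1 and Smarcd2 were at −0.46 (−0.69 to −0.22) and −0.52 (−0.83 to −0.22). Kdm1a had 274 and 135 CPM of footprints and poly(A) levels of 388 and 390 CPM in the poly(A) table, a density change of −0.80 (−0.94 to −0.66). Kdm4b, with more mRNA and 22.3 and 20.9 CPM of footprints, was also at −0.80 (−1.16 to −0.43). Kdm5c and Kdm5a were at −0.36 (−0.54 to −0.18) and −0.33 (−0.69 to 0.03), and Kdm6b and Kdm6a at −0.45 (−0.81 to −0.10) and −0.13 (−0.40 to 0.14).

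Chd6 was the highest at 0.60 (0.09 to 1.10), from 67 and 64 footprint counts, and at 0.56 with the poly(A) counts of the poly(A) table, where no gene reached 1.5-fold higher. Its poly(A) counts in the footprint table were 952 and 1113. Chd4 followed at 0.07 (−0.05 to 0.19), with 217 and 174 CPM of footprints and 8422 and 9437 poly(A) counts, and turned to −0.12 without centring. Kdm3a, with 687 and 539 footprint and 1065 and 1641 poly(A) counts, was at −0.09 (−0.28 to 0.11). The most LIN28A-enriched gene of the 37 had the highest density change, while Chd1, the second most enriched, was at −0.63 (−0.87 to −0.40).

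Genes left out for under 50 footprint counts with siLin28a were Chd2 (73 and 26 counts), Chd3 (56 and 33), Kdm1b (88 and 32), Smarca1 (65 and 34) and Smarcc2 (90 and 45). Chd5, Ino80b, Ino80c, Kdm4d, Kdm5d, Smarca2 and Smarcd3 were not in the footprint table. This minimum removes genes with lower siLin28a footprints. Without a minimum, 34 of 37 genes were below the median transcript with a median of −0.44, and Chd3 joined Chd6 and Chd4 above it at 0.21 (−0.43 to 0.85). Poly(A) counts of the footprint table exceeded those of the poly(A) table for Smarce1, Smarca5 and Kdm2b, whose ratios are uncertain; without them the median density change was −0.52.

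**Figure D4:**
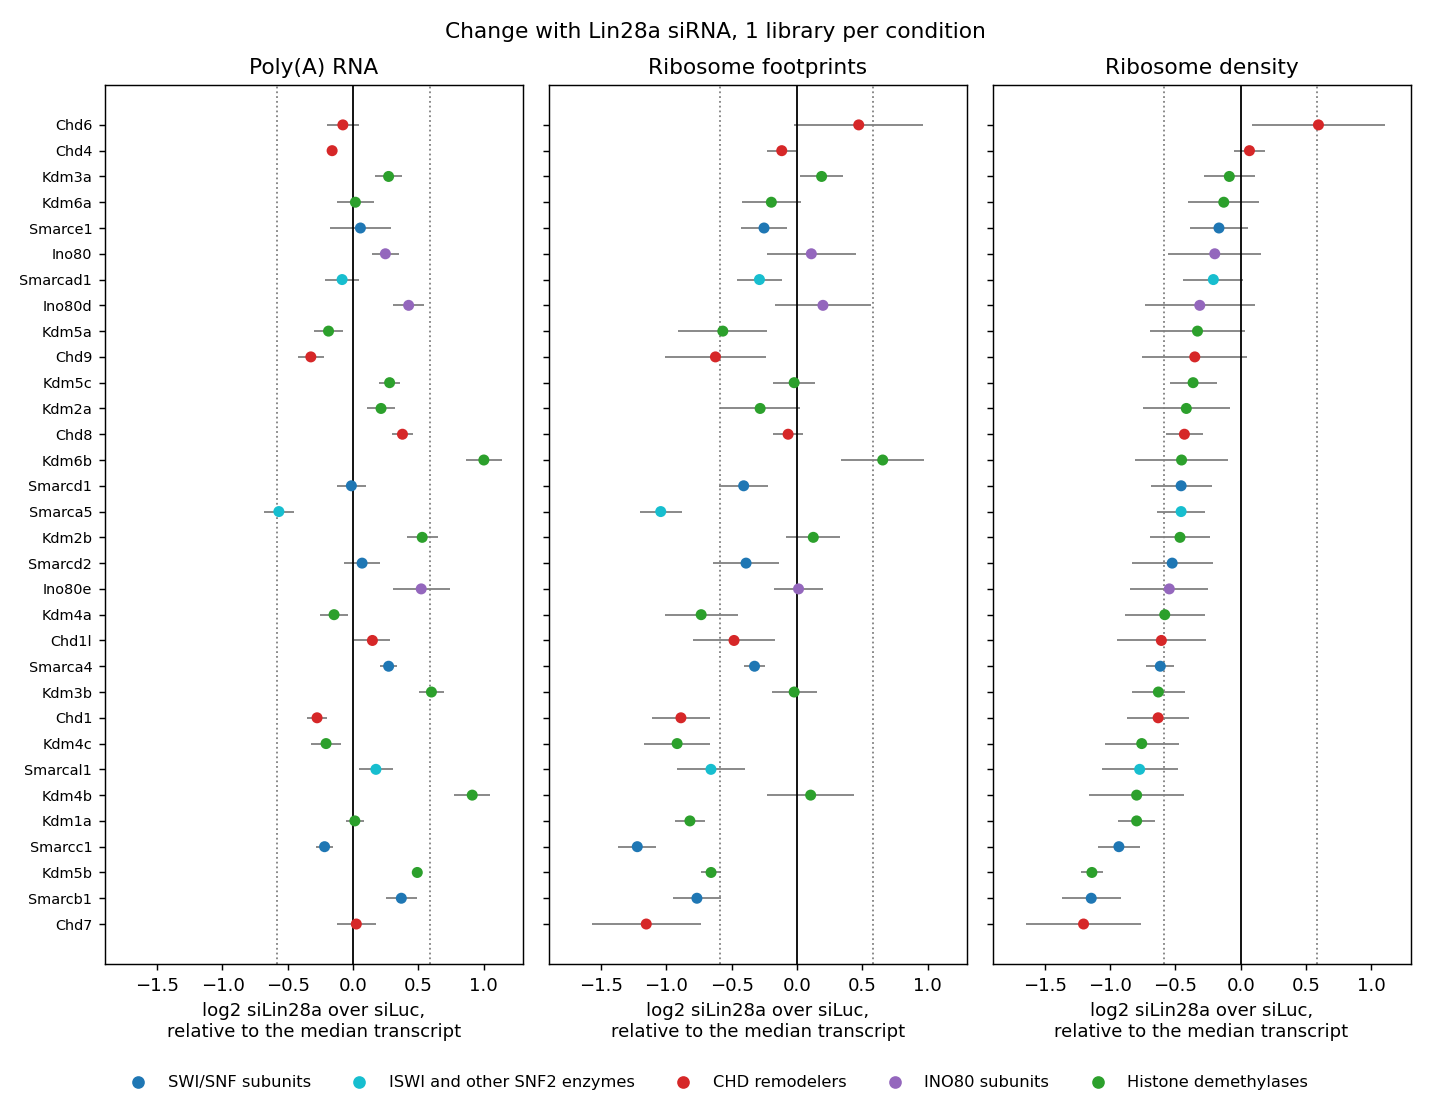
Log2 change with siLin28a over siLuc in poly(A) RNA, footprints and ribosome density for 32 genes, ordered by density change, relative to the median transcript. Bars are 95% counting intervals for 1 library per condition, and dotted lines mark 1.5-fold; in the density panel 30 of 32 points lie left of 0.

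Both LIN28A-enriched and LIN28A-depleted genes of the set lay below the median in ribosome density. Of the 12 CLIP-enriched genes with a density value, 10 were below the median transcript with a median of −0.39. Among the 2121 other enriched transcripts, 28.2% were below it and the median was 0.36. All 13 CLIP-depleted genes were below the median transcript with a median of −0.58, against 73.8% and −0.33 for the 2320 other depleted transcripts. The Spearman correlation of CLIP enrichment with density change was 0.37 over 32 genes and 0.50 over 6519 transcripts, given as a description, since genes share the same libraries. For mRNA change it was −0.59 over 37 genes and −0.30 over 7716 transcripts. CLIP-depleted genes had a median mRNA change of 0.37 (11 of 13 above the median transcript) and CLIP-enriched genes of −0.16 (4 of 13). For other transcripts the medians were 0.11 among the depleted (65.3% above the median transcript) and −0.12 among the enriched (36.3% above). The count for CLIP-enriched genes thus lay near the share of other enriched transcripts. CLIP enrichment used the untreated library and the siRNA ratios did not.

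**Figure D5:**
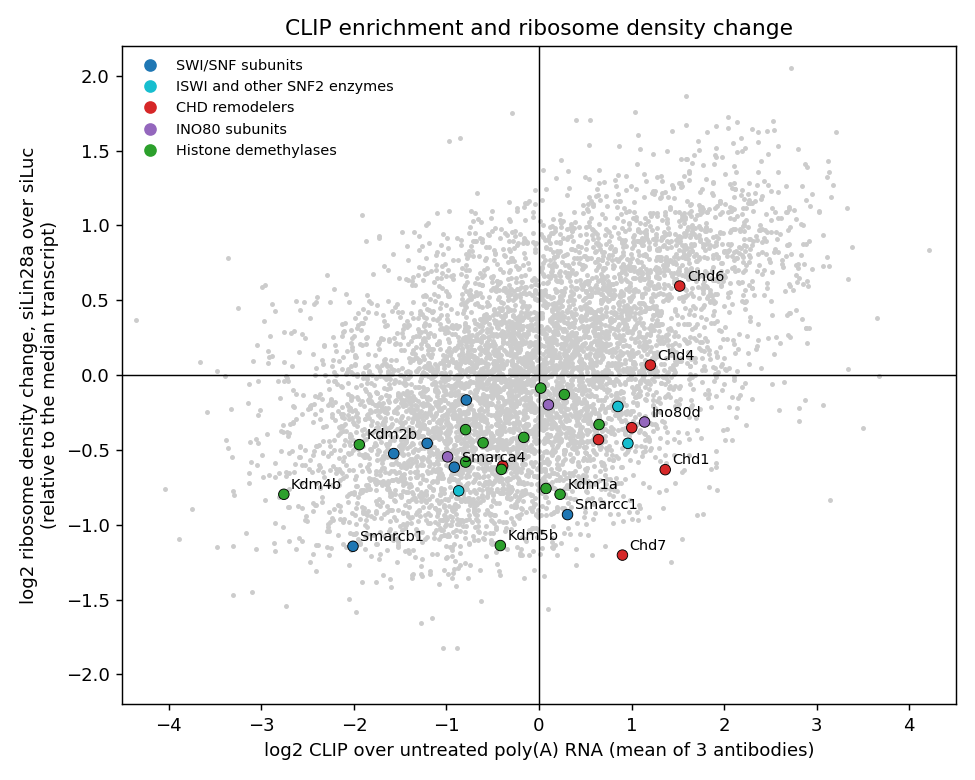
Log2 ribosome density change with siLin28a (1 library per condition) against mean log2 CLIP enrichment over 3 antibodies, for 6519 transcripts in gray, of which 7 lie outside the axes, and the genes described here in color. Chd6 and Chd4 are the colored points above 0, while the other CLIP-enriched genes, Chd1 and Chd7 among them, lie below it.

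Density change and coding length had a Spearman correlation of −0.23 over 6519 transcripts, but of 0.21 over the 32 genes, given as a description. Among other transcripts the median density change was 0.18 below 1000 coding bases and −0.13 from 1000 to 2000. It was −0.21 from 2000 to 3000, −0.19 from 3000 to 4000 and −0.01 above 4000. From 1000 bases up, the genes described here were at −0.49 (4 genes), −0.77 (3 genes), −0.46 (10 genes) and −0.40 (14 genes) in the same order. These medians were below the other transcripts of the same length in each class. Density in siLuc cells, the log2 ratio of footprint to poly(A) CPM relative to the median transcript, was also low for this set, with a median of −0.94 over 37 genes and of −1.63 for those above 4000 coding bases, where other transcripts stood at −1.01. CHD genes were lowest, with a median of −2.15, Chd6 at −3.61 and Chd2 at −3.28, and Ino80e was highest at 1.48. This ratio is not adjusted for the region in which poly(A) reads were counted.

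In every partner list more genes lay below the median transcript in density than above it, where 50% of all transcripts lie below. The count for ISWI partners was near that share, and each list holds few genes. Medians were −0.40 for 10 NuRD partners (9 below), −0.38 for 7 other SNF2-type motors (5 below), −0.31 for 14 INO80, SRCAP and TIP60 partners (10 below) and −0.23 for 16 histone methyltransferases (11 below). They were −0.21 for 10 BAF partners (8 below), −0.18 for 9 other jumonji proteins and demethylase partners (6 below) and −0.09 for 7 ISWI partners (4 below). Pbrm1 stood at −0.21, Arid2 at 0.49, Atrx at 0.36, Setd2 at 0.27 and Jmjd1c at 0.53, all of them CLIP-enriched, and Dmap1 at −0.96 and Dpf2 at −0.91, both depleted. Other partners differed, with the enriched genes Ruvbl1, Hells and Hdac2 at −0.99, −0.38 and −0.26. The depleted genes Jmjd4, Chrac1 and Mbd3 stood at 0.74, 0.24 and 0.005.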

How the data were processed

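GSNAP, bedtools and the build mm9 are named without roles, per the submitters' processing notes, and how reads were counted is unknown here. The authors deposited whole-read counts per RefSeq transcript in 3 tables, with RPKM in the poly(A) table that equals counts scaled by exon length and the table's total counts. Transcript identifiers and symbols were used as in the files; 43 of 44 identifiers were found in the supplied RefSeq gene table, and coordinates are those of the files. The CLIP table's poly(A) column names no condition and was left out; together with others, it makes 21 columns of per-sample values left unused. CLIP was tested with edgeR 4.0.16 (R 4.3.3; TMM, filterByExpr, quasi-likelihood test), with DESeq2 1.42.0 as an alternative, after the code was tested on simulated data. No transcript of the footprint table has under 80 poly(A) counts; its poly(A) counts relative to the poly(A) table followed the coding share of transcript length (Spearman 0.66 over 7181 transcripts). Intervals cover counting error only. The members and lists were chosen with earlier results of these data known. Values per library were given for the 5 highest and 5 lowest genes in CLIP, the 3 highest and 3 lowest in each siRNA comparison, and paralog sets; other named genes were added after their values were seen.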

Additional observations from a re-analysis of the deposited data

How the results depend on the processing

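The CLIP calls for these genes kept their counts within 1.5 times under every alternative run. The median fitted log2 enrichment moved from 0.02 to −0.34 with library totals and to 0.21 with coding counts; without 1 antibody it ranged from −0.06 to 0.07, with 12 or 13 genes enriched and 13 or 14 depleted. Called values changed sign with library totals (Kdm1a −0.14, Smarcc1 −0.059) or with coding counts (Kdm5b 0.21, Kdm3b 0.16), and Kdm3a, not called, became depleted at −0.34 with library totals. Uncalled values that changed sign and stayed uncalled were Ino80c (−1.48), Chd1l (0.37), Smarcc2 (0.10) and Kdm1b (0.045) with coding counts, Chd2 (−0.08), Kdm6a (−0.09), Ino80 (−0.26) and Kdm4c (−0.29) with library totals, and Kdm3a (−0.06) without 2J3. With coding counts, the poly(A) counts stayed those of the whole transcript. The causes of these changes were not tested. For mRNA, the count at least 1.5-fold lower went from 0 to 2 with no minimum (Smarca5, and Kdm4d from 8 counts), and to 1 against untreated (Chd5) or with the footprint table's counts (Smarca5). For footprints, library totals gave 0 higher, and a minimum of 200 counts, which leaves fewer genes, 0 higher and 6 lower. For density, library totals gave 0 higher and 21 lower, the 200 minimum 0 and 7, and the poly(A) table's counts 0 higher. Shares of all transcripts under these footprint and density settings are not given. Basal density had a median of −0.68 with the poly(A) table's counts. The median coding share ranged from 83.9% to 86.4% without 1 antibody. The poly(A) column within the CLIP table names no condition and was not run as input. No paired analysis was possible because each poly(A) and footprint condition has 1 library and the labels number no replicates. Genes with under 100 footprints, such as Chd6, have wide counting intervals, and single libraries leave the siRNA comparisons without a measure of biological spread.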
